A study of Mus musculus with 12 samples.

Results

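The genes described here carry poly(A) sites (PASs) of the type exon3 (assigned to the 3'-most exon) spread over more than 2000 nt. A gene was a member when at least 2 of its PASs were exon3 PASs, lay on 1 chromosome, and the outermost pair was over 2000 nt apart. Of the 15075 genes with an exon3 PAS, 7465 had 2 or more on 1 chromosome, and 1565 of these were members (20.96%, 95% Wilson interval 20.1 to 21.9%, and 10.4% of all genes with an exon3 PAS). Together the members held 6637 of the 31279 exon3 entries, in a PAS list of 56204 entries under 16627 gene symbols. The span was set by positions alone, and no read count or change after stimulation entered it. Earlier results of these data were known when the members were chosen.

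The PASs were identified by 3'READS, which sequences the junction between the transcript end and the poly(A) tail, in acute hippocampal slices of C57BL/6 mice labelled as 3 months old. The 12 samples fell into 4 groups of 3. For chemical long-term potentiation (LTP), slices received 50 uM forskolin, an activator of adenylyl cyclase, for 5 min and then 50 uM forskolin with 30 mM KCl and 10 mM calcium for 5 min, and were frozen 1 or 3 hr later. Control slices received 0.2% DMSO for 10 min and were frozen at the same times. The dentate gyrus was trimmed from all slices, and some of the slices of each animal served as its control. Libraries came only from samples with a rise of Arc and the short Homer1 isoform after LTP induction by qPCR. The long Homer1 isoform and Hprt had to be unchanged. The read counts beside each PAS were not analysed here, because their column names match none of the sample labels. All values below therefore describe where the PASs of the combined samples lie, with no level, no replicate error and no comparison of LTP with control, and the depth behind single PASs was not analysed here.

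The 3' end of an mRNA is made by cleavage of the nascent transcript and addition of a poly(A) tail, directed by a hexamer, most often AAUAAA or AUUAAA, that lies a short distance upstream of the cleavage position and is bound by the CPSF complex. Where a 3'UTR holds several PASs in tandem, the choice among them leaves the protein unchanged and sets how much 3'UTR the mRNA carries. The stretch between a proximal and a distal PAS, the alternative 3'UTR, can hold binding sites for miRNAs and RNA-binding proteins that act on stability, translation and localisation, and neurons are known for the use of distal PASs and long 3'UTRs.

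Sequences at both ends of a wide span are shown for a pair of members, because these are the signals that a choice of PAS selects between. Celf2 encodes an RNA-binding splicing regulator, and Fip1l1 encodes a subunit of CPSF itself. The 3 exon3 PASs of Celf2 spanned 2175 nt and the 3 of Fip1l1 spanned 2637 nt. In both genes exactly 1 pair of transcript ends annotated by GENCODE on GRCm38 was the same distance apart to within 10 nt (2175 nt in Celf2 and 2645 nt in Fip1l1). The last 30 bases of those transcripts, 5' to 3' on the transcribed strand with the hexamer in capitals, are as follows.
Celf2 proximal end, minus strand, chr2:6541869-6541898: tgtctccaatATTAAAccattttcctaata
Celf2 distal end, minus strand, chr2:6539694-6539723: ttcAATAAAtggactttggaaacaaaaaaa
Fip1l1 proximal end, plus strand, chr5:74596116-74596145: aaAATAAAagtgtgcatttttttgtgttaa
Fip1l1 distal end, plus strand, chr5:74598761-74598790: atcAATAAAaatgatcttgtgaaatattaa
Celf2 had the less common ATTAAA at its proximal end and AATAAA at its distal end, and Fip1l1 had AATAAA at both. The hexamer began 20 and 27 bases before the proximal and distal ends of Celf2, and 28 and 27 bases before those of Fip1l1. These genes were shown because their hexamers were present at both ends, and they were chosen after the sequences were seen. Of 7 list members with a single matching pair of annotated ends, 2 held either hexamer within 30 bases of the proximal end and 6 held one within 30 bases of the distal end. Dcx, Fosl2 and Unc5d had it at the distal end only, and Rod1 at neither end. Absence of a hexamer from these 30 bases says only that the letters are not in this window.

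The spans of the members ranged from 2005 nt in Lgr5 to 333631 nt in Ptprk, with a median of 2937 nt (95% order-statistic interval 2855 to 3027 nt) and quartiles of 2375 and 4028 nt. Spans over 3000 nt were found in 752 members (48.1%), over 5000 nt in 212 (13.5%), over 10000 nt in 41 (2.62%) and over 20000 nt in 19 (1.21%). Just inside the threshold were Lgr5, an R-spondin receptor, with 2005 nt, Zfp946 with 2007 nt and Zmym2 with 2009 nt. Just outside were Cldn1, a tight junction protein, with 2000 nt, Oxsm, a mitochondrial fatty acid synthase enzyme, with 1999 nt and Tmem181b-ps with 1998 nt. Intervals here and below cover counting over genes only.

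**Figure D1:**
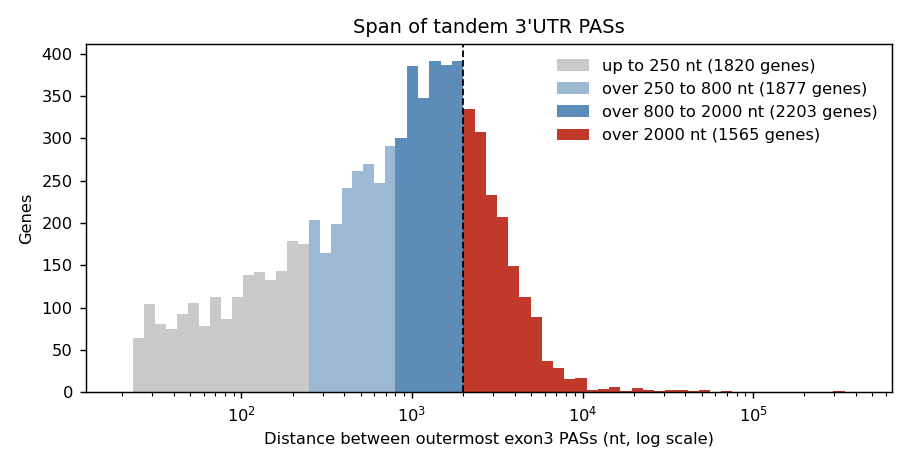
Histogram of the distance between the outermost exon3 PASs (nt, log scale) in the 7465 genes with 2 or more exon3 PASs, stacked by span class, with the number of genes on the y axis and the dashed line at 2000 nt. The 1565 members (red) form the right flank of the distribution, and 19 of them lie beyond 20000 nt.

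By annotated length, the label tandem 3'UTR was possible for most members and not for the widest. Lengths were compared without positions, so a span that fitted need not lie within that exon. Of 1553 members matched by symbol and chromosome in GENCODE, 1530 were protein coding, and 1420 had a span that fitted within the longest annotated last exon of the gene. In the remaining 133 (8.56%, 7.27 to 10.1%) the outermost PASs lay further apart than that exon was long, against 2.02% of 2184 genes with a span of 800 to 2000 nt, 0.27% of 1852 with 250 to 800 nt and 0 of 1805 with up to 250 nt. The classes are set by the span, and a wider span more easily exceeds an exon, so the rule itself bears on this order. These narrower classes exclude their lower limit and serve as comparison below. All 19 members over 20000 nt and 34 of the 41 over 10000 nt were among these 133. In 45 members (2.88%) a PAS of the same gene with another label, such as intronic, lay between the outermost exon3 PASs, and 41 of those 45 were among the 133. Mrpl48 was not among the 133, with a span of 3474 nt and a longest last exon of 3632 nt, yet held 1 such PAS. Where a span below is wider than the longest annotated last exon of its gene, that length or, for the 15 widest, its range is given. Within the 1420 remaining members the median span was 2853 nt (2803 to 2934 nt) and the widest was 17024 nt.

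The widest span belonged to Ptprk, a receptor-type tyrosine phosphatase, on the plus strand of chromosome 10. Its first exon3 PAS lay at position 27983495 (mm9) and the next at 28315855, a gap of 332360 nt or 99.6% of the span. The last exon of Ptprk measured at most 2364 nt in the annotation, and the other 3 PASs, the last of them at 28317126, lay within that length of each other. The same arrangement of 1 large gap was present in all 15 members with the widest spans, in which the largest gap took between 90.8% of the span (Fam20b, a xylose kinase of proteoglycan synthesis) and 100%. Next was Wdr17 with 74277 nt and a longest last exon of 856 nt. Btbd7 spanned 53387 nt, and Dcp1a, an activator of mRNA decapping, spanned 42515 nt with 10 PASs. Other wide members were Atg4c, an autophagy protease (38265 nt), 1810048J11Rik (38256 nt), Uhrf2, a ubiquitin ligase that reads modified DNA (37293 nt), Slc6a13, a GABA transporter (34888 nt), and Cenpc1, a centromere protein (34365 nt). After these came Clcn3, a chloride-proton exchanger of vesicles (30933 nt), Fam20b (27167 nt), Ptn, the growth factor pleiotrophin (25713 nt), Prdm2, a histone methyltransferase (24155 nt), and Terf1, a telomere-binding protein (23724 nt). All 15 spans were wider than the longest annotated last exon, which measured from 597 nt (Slc6a13) to 5339 nt (Btbd7). Between 1 and 5 PASs of the same gene with another label lay inside each of these 15 spans.

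Members carried more exon3 PASs than genes with narrower spans. The median was 4 per member, against 3 in genes spanning 800 to 2000 nt and 2 in both narrower classes. A gene with more PASs has more chances of a wide span, so the rule itself bears on this difference. By number, 332 members (21.2%) had 2 exon3 PASs, 399 (25.5%) had 3, 257 (16.4%) had 4, 242 (15.5%) had 5, and 127 (8.12%) had 8 or more. The median span rose little with the number of PASs, from 2656 nt with 2 PASs to 3121 nt with 5 and 3341 nt with 8.

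The member with the most exon3 PASs was Prosapip1, which encodes a protein that binds the postsynaptic scaffold ProSAP, with 17 PASs over 2581 nt on the minus strand of chromosome 2. Its longest gap was 759 nt. Lrrc58 had 14 over 7021 nt. Next, with 13 each, came D3Ertd254e (5965 nt), Ccdc50 (5846 nt), Bbx, an HMG-box transcription factor (4996 nt), Gatsl2 (3318 nt) and Grpel2, a mitochondrial co-chaperone (3232 nt). Jrk (4545 nt), Nos1, the neuronal nitric oxide synthase (4532 nt), and Car8, a carbonic anhydrase-related protein (4308 nt, beside a longest annotated last exon of 2855 nt), had 12 each. All 10 of these spans were shorter than 10000 nt, and none held a PAS of the gene with another label. In Nos1, on the plus strand of chromosome 5, the PASs formed a proximal cluster of 6 within 897 nt and a distal cluster of 4 within the last 112 nt, with 2 between them. In Bbx they were spaced more evenly, and no gap exceeded 925 nt.

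**Figure D2:**
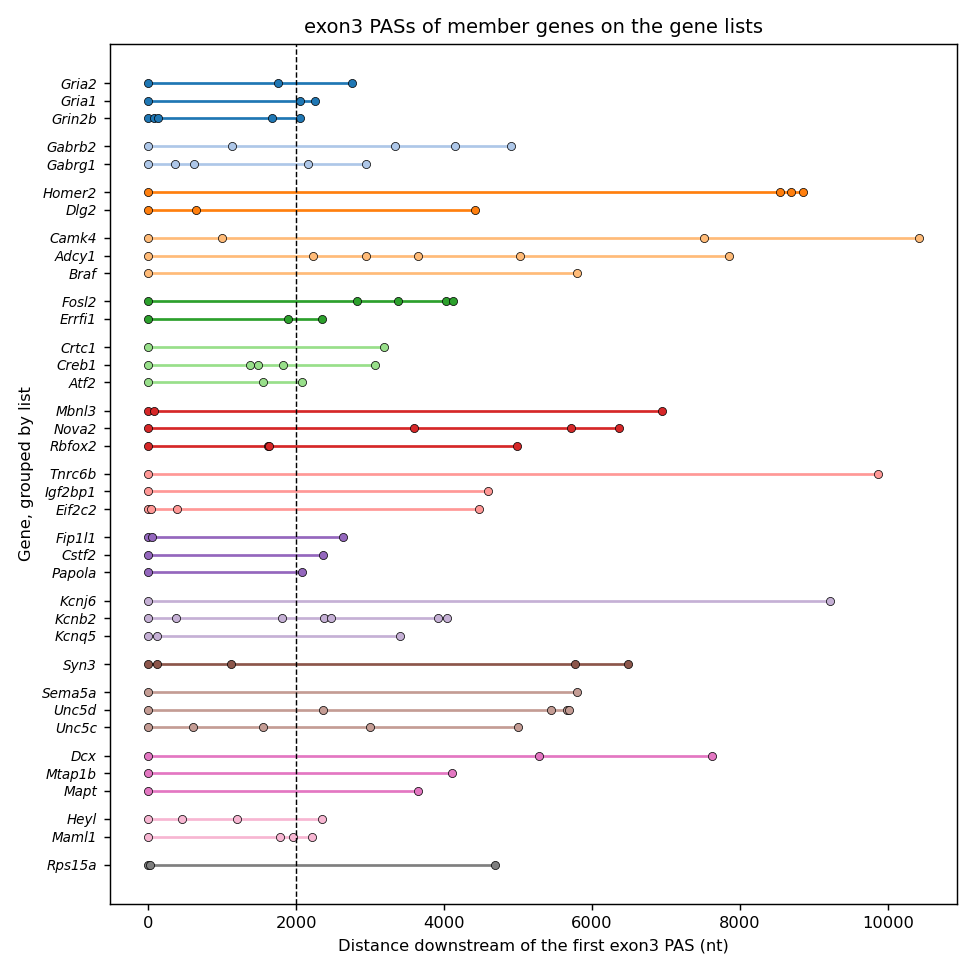
Position of every exon3 PAS (dots) in member genes from the gene lists, as distance downstream of the first exon3 PAS (nt), up to 3 genes per list, coloured by list, with the dashed line at 2000 nt. Braf, Tnrc6b, Kcnj6 and Mapt have only the outermost pair, Adcy1 has PASs spread along the span, and in Homer2 a single proximal PAS faces 3 distal ones.

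Along the span, PASs gathered towards both ends. The 1233 members with 3 or more PASs held 3507 inner ones, meaning those between the outermost pair. Divided into 5 equal parts from proximal to distal, the span held 1028 of them (29.3%, 27.8 to 30.8%) in the first part, then 659 (18.8%), 521 (14.9%) and 468 (13.3%), and in the last part 831 (23.7%, 22.3 to 25.1%). An even spread would put a similar number in each. In genes spanning 800 to 2000 nt the same parts held 26.8%, 17.1%, 16.3%, 16.1% and 23.7%, so both classes were fullest at the proximal end and second fullest at the distal end. The ends of a span are themselves PASs, and sites within 24 nt were clustered into 1 by the authors, so positions within a gene are not independent of each other.

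The share of the span in its largest gap depended on the number of PASs. It is 100% by definition in the 332 members with 2 PASs, and few PASs leave it high by necessity. The share under random placement of PASs was not computed. The largest gap between neighbouring PASs took a median of 74.97% of the span (72.3 to 77.9%), against 84.6% (82.4 to 86.7%) in the 800 to 2000 nt class, where fewer PASs divide the span. In 944 members (60.3%) a single gap exceeded 2000 nt on its own. With 3 PASs the largest gap took a median of 85.5% of the span, with 5 PASs 56.8% and with 8 PASs 44.4%. In the 1233 members with 3 or more PASs the largest gap was the last in 468 (38.0%, 35.3 to 40.7%), the first in 346 (28.1%, 25.6 to 30.6%), and in between in 419 (34.0%). Their median last gap was 811 nt and their median first gap 555 nt. In the 800 to 2000 nt class the largest gap was the last in 39.4% (37.0 to 42.0%) and the first in 34.2% (31.8 to 36.7%), the second of these intervals lying above that of the members. In that class it was in between in 26.4%. Members had more PASs per gene (mean 4.24 against 3.45), and genes with equal numbers of PASs were not compared.

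Among members with 5 or more PASs the most uneven were Atg4c, with 99.5% of the span in 1 gap, and Clcn3 with 94.9%. Mrpl48, a mitochondrial ribosomal protein, had 94.6%, with a proximal PAS that lay 3288 nt before a cluster of 5 distal PASs within 186 nt. Agxt2l1 (93.9%), Macrod2 (92.1%), Zfp106 (91.9%), Gas7 (91.9%), D3Ertd751e (91.8%) and Dcp1a (91.7%) were also among the first 10. In Agxt2l1, 8 PASs of the gene with another label lay inside its span of 15011 nt, which is wider than its longest last exon of 4057 nt. The most even were Bbx, with 18.5% of the span in its largest gap, Kif5b, a kinesin heavy chain (18.6%), D3Ertd254e (20.99%), Cacnb4, a calcium channel beta subunit (22.1%), and Pkn2, a protein kinase (22.7%). Kif5b had 10 PASs over 2544 nt and Cacnb4 had 9 over 4780 nt.

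**Figure D3:**
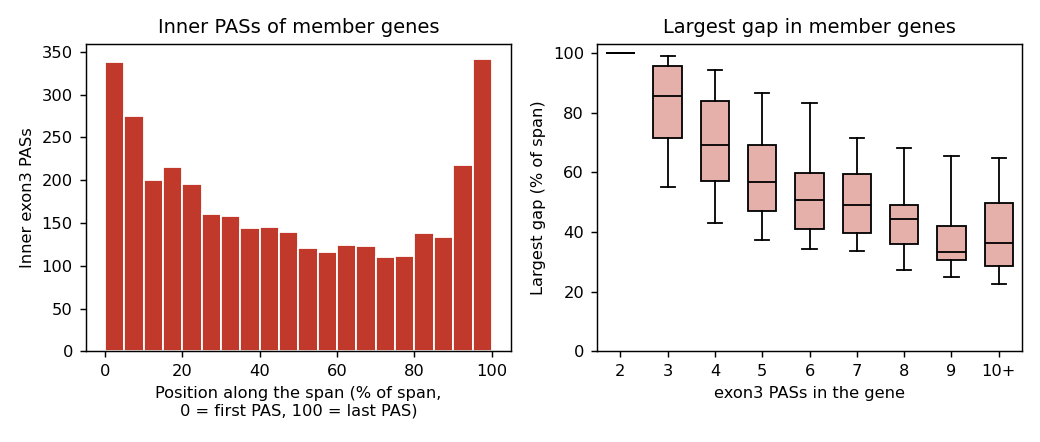
Left, number of inner exon3 PASs of member genes (y axis) in 20 bins along the span (x axis, 0 to 100% from the first to the last PAS). Right, share of the span in its largest gap (%) by number of exon3 PASs in the gene, with boxes for quartiles, a line for the median and whiskers for the 5th and 95th percentiles. Inner PASs are most frequent at both ends, and the median share falls from 100% with 2 PASs to 44.4% with 8.

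Receptors and postsynaptic proteins were examined first among the gene lists. Of 20 glutamate receptor genes with an exon3 PAS, 4 were members (20%, 8.07 to 41.6%), beside 10.4% of all genes. Among them were the AMPA receptor subunits Gria2 (2759 nt) and Gria1 (2254 nt), and the NMDA receptor subunit Grin2b (2053 nt). In Gria1, on the plus strand of chromosome 11, the first PAS lay at 57141492 and the other 2 followed 2047 and 2254 nt downstream, while in Gria2, on the minus strand of chromosome 3, the PASs at 80491713, 80489951 and 80488954 were more evenly spaced. Grin2b had a longest annotated 3'UTR of 18865 nt, and its 5 PASs spanned 2053 nt. Among 14 GABA-A receptor subunits 3 were members, among them Gabrb2 (4904 nt, beside a longest last exon of 2485 nt) and Gabrg1 (2947 nt). Postsynaptic scaffold and adhesion genes gave 2 of 18, the scaffold Homer2 (8856 nt) and Dlg2, which encodes PSD-93 (4416 nt). In Homer2 a single proximal PAS lay 8544 nt before a distal group of 3.

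Kinases, second messenger enzymes and their transcription factors followed. Of 45 genes of calcium, cAMP and MAP kinase signalling 8 were members (17.8%, 9.29 to 31.3%). The widest were Camk4, a calmodulin-dependent kinase that phosphorylates CREB (10421 nt, beside a longest annotated last exon of 1510 nt), and Adcy1, a calmodulin-stimulated adenylyl cyclase (7851 nt). Braf, a kinase upstream of ERK (5803 nt), and Prkca, a protein kinase C (4866 nt), followed with 2 PASs each. Narrower members of the list included Camk1d (3453 nt) and Nras (3254 nt). In the CREB family 3 of 14 genes were members. Creb1, the cAMP-responsive transcription factor, had 5 exon3 PASs on the plus strand of chromosome 1, at 64648057, 64649434, 64649544, 64649884 and 64651122, a span of 3065 nt whose largest gap, the first, was 1377 nt. Its coactivator Crtc1 spanned 3190 nt with 2 PASs, and Atf2 spanned 2076 nt with 3. Of 32 activity-induced genes, 2 were members (6.25%, 1.73 to 20.2%), Fosl2, an AP-1 subunit (4125 nt), and Errfi1, a feedback inhibitor of EGF receptor signalling (2357 nt).

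The highest share of members on any of the 21 lists was on the list of neuronal RNA-binding proteins, with 10 of 26 genes (38.5%, 22.4 to 57.5%), an interval above the 10.4% of all genes. On this list 22 genes had 2 or more exon3 PASs, against 7465 of all 15075. Mbnl3, a muscleblind splicing regulator, spanned 6954 nt, beside a longest annotated last exon of 3750 nt, with 6876 nt of it in the last gap. Nova2, a neuron-specific splicing regulator, spanned 6366 nt with 4 PASs. Rbfox2 spanned 4988 nt with 4, and Qk, the Quaking protein of glia, 4869 nt with 9. The other members on this list were Elavl1 (3562 nt), Rod1 (3382 nt), Nova1 (2807 nt), Msi2 (2335 nt), Rbfox3 (2238 nt, beside a longest last exon of 1484 nt) and Celf2 (2175 nt). Not all of these are specific to neurons, since Qk is best known from glia and Elavl1 is expressed widely. Of 30 genes of cytoplasmic translation and miRNA function 6 were members. Tnrc6b, a GW182 protein that links Argonaute to deadenylation, had its PASs at 80761653 and 80771516 on the plus strand of chromosome 15, 9863 nt apart with none between them. Igf2bp1, an mRNA-binding protein of localisation and stability, spanned 4602 nt, and the Argonautes Eif2c2 and Eif2c3 spanned 4470 nt and 3593 nt. Cpeb2, a cytoplasmic polyadenylation element-binding protein (3534 nt), and Cnot4 (2168 nt) were the others.

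Of 21 genes of the cleavage and polyadenylation machinery 4 were members (19.0%, 7.67 to 40%). They were Fip1l1 (2637 nt), Cstf2, the CstF subunit that binds the downstream element (2361 nt), Papola, a poly(A) polymerase (2079 nt), and Cpsf6, a subunit of cleavage factor I (2021 nt). Cstf2 and Papola had only the outermost pair, Fip1l1 had 3 PASs with 98.3% of the span in 1 gap, and Cpsf6 had 5 with 52.4%. Wdr33, the CPSF subunit that contacts the hexamer, was not a member and had 4 exon3 PASs over 716 nt.

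Ion channels, the cytoskeleton and guidance genes also held members. Of 31 voltage-gated ion channel genes 7 were members (22.6%, 11.4 to 39.8%), among them Kcnj6, a G protein-gated potassium channel that the list also holds (9219 nt). Kcnb2 (4037 nt), Kcnq5 (3401 nt), Cacna1e (2601 nt) and Kcna1 (2074 nt) were others. Kcnj6 had a longest last exon of 2482 nt and 4 intronic PASs between its exon3 pair. Of 26 microtubule-associated proteins and kinesins 8 were members (30.8%, 16.5 to 50.0%), an interval also above 10.4%. Dcx, the doublecortin of migrating neurons, had PASs at 140298013, 140292725 and 140290385 on the minus strand of chromosome X, a span of 7628 nt. Mtap1b spanned 4113 nt and Mapt, which encodes tau, 3647 nt, each with 2 PASs. The other members were the kinesins Kif3a (3133 nt, beside a longest last exon of 957 nt), Kif3b (2974 nt) and Kif5b (2544 nt), Mtap6 (2684 nt) and Dclk1 (2506 nt). Of 52 axon guidance genes 10 were members (19.2%, 10.8 to 31.9%). As for the ion channels, the lower bound was just above 10.4%. The ion channel count includes the G protein-gated Kcnj6, and no interval without it was computed. The axon guidance members were led by Sema5a (5797 nt), the netrin receptors Unc5d (5689 nt) and Unc5c (4996 nt), and Epha5, an ephrin receptor (3703 nt). Vesicle release genes gave 1 of 23, Syn3, a synapsin (6492 nt, beside a longest last exon of 3867 nt), and the Notch pathway 2 of 21, the target Heyl (2354 nt) and the coactivator Maml1 (2215 nt). Notch1 itself spanned 1351 nt with 3 PASs, and Homer1 spanned 323 nt with 2.

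Lists for 3 large protein complexes or systems held 1 member in all. None of 72 oxidative phosphorylation genes was a member (Wilson upper bound 5.07%), none of 37 proteasome subunits (upper bound 9.41%), and 1 of 74 cytosolic ribosomal protein genes (1.35%, 0.239 to 7.26%). The upper bounds of these 3 intervals lay below the 10.4% of all genes. Membership needs 2 or more exon3 PASs, which 16, 13 and 31 of these genes had, against 7465 of all 15075. The median span of those 16, 13 and 31 genes was 208.5, 276 and 231 nt, against 817 nt over all 7465. Of all 7465, 20.96% were members, and no interval among such genes was computed for these lists. The ribosomal exception was Rps15a, whose 3 PASs lay 26 nt apart and then 4669 nt apart. Its span was shorter than its longest annotated last exon of 4822 nt. Of the cell type markers, 1 of 10 for neurons (Rbfox3), 1 of 10 for astrocytes (Aqp4, a water channel, 2461 nt), 3 of 11 for oligodendrocyte cells and 0 of 11 for microglia were members. The oligodendrocyte genes included the myelin protein Mbp (3371 nt, 4 PASs) and the precursor receptor Pdgfra (2347 nt, 4 PASs). By symbol, 69 of 332 genes named Zfp with a number, most of them zinc finger proteins, were members (20.8%, 16.8 to 25.5%), against 33 of 295 solute carriers named Slc (11.2%, 8.08 to 15.3%), 9 of 63 genes named Rab with a number (14.3%), most of them Rab GTPases, and 16 of 190 genes named Tmem (8.42%). A short list leaves a wide interval, members of 1 list can share sequence, and no test of the lists was run. Lists also differ in how many of their genes have 2 or more exon3 PASs, as 236 of the 332 Zfp genes did.

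**Figure D4:**
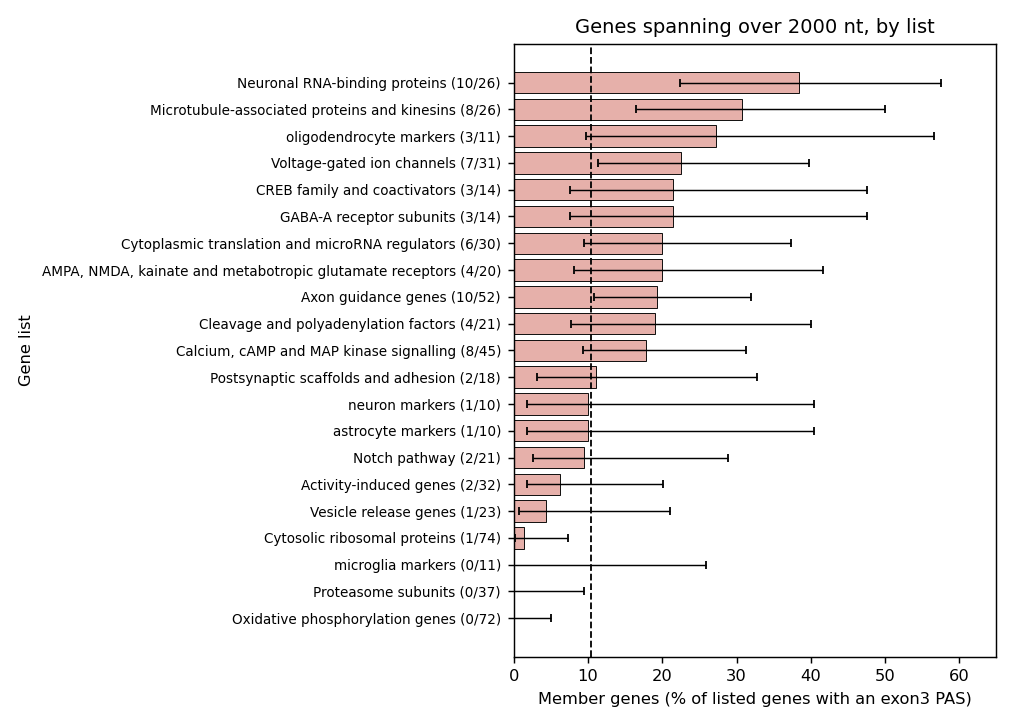
Share of genes on each list with a span over 2000 nt, as a percent of the listed genes with an exon3 PAS, with 95% Wilson intervals and the counts beside the names. The dashed line is the 10.4% of all genes. Neuronal RNA-binding proteins (10 of 26) have the highest share, and oxidative phosphorylation genes (0 of 72) and proteasome subunits (0 of 37) have none.

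Other PAS types were compared next, since a gene with tandem 3'UTR PASs can also end within an intron or beyond its annotated end. An intronic PAS was present in 629 of the 1565 members (40.2%, 37.8 to 42.6%). The shares in genes spanning 800 to 2000 nt (39.8%), 250 to 800 nt (39.5%) and up to 250 nt (38.7%) lay inside the interval of the members, while genes with a single exon3 PAS had 25.1% (24.1 to 26.0%). An upstream antisense (UA) PAS, from transcription that runs away from the promoter, was listed for 253 members (16.2%, 14.4 to 18.1%), and for 16.3%, 16.8% and 15.2% of the narrower classes in the same order. Here too genes with a single exon3 PAS had a lower share (10.1%, 9.48 to 10.8%). The exon3ext type, beyond the annotated 3' end, was listed for 198 members (12.7%, 11.1 to 14.4%). This share was below that of genes spanning 250 to 800 nt (16.8%, 15.2 to 18.6%), where the intervals were separate, and its interval overlapped those of genes spanning 800 to 2000 nt (15.5%, 14.0 to 17.1%) and up to 250 nt (14.6%, 13.0 to 16.3%). Genes with a single exon3 PAS had an exon3ext share of 9.16% (8.53 to 9.83%), below all span classes. Where an exon3ext PAS lay downstream, the farthest one was a median of 1068 nt beyond the last exon3 PAS of the member (197 genes). How far the authors' annotation extended decides whether a PAS counts as exon3 or exon3ext.

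**Figure D5:**
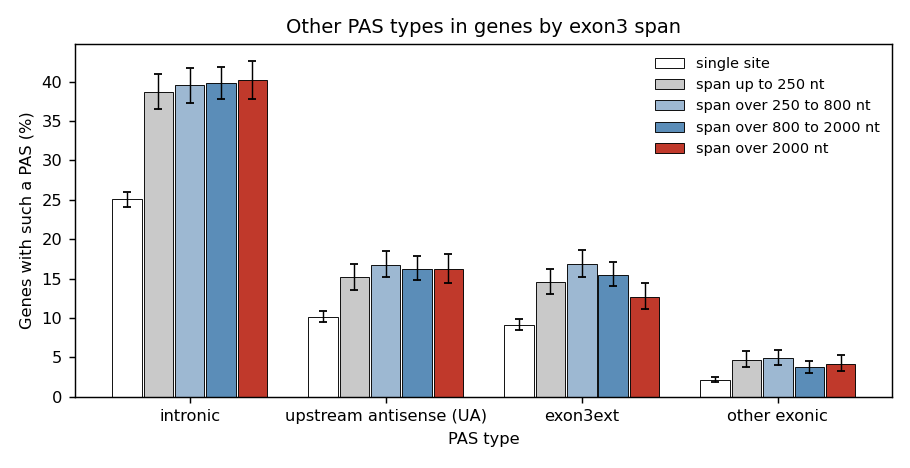
Percent of genes that also have an intronic, upstream antisense, exon3ext or other exonic PAS (x axis), by exon3 span class and for genes with a single exon3 PAS, with 95% Wilson intervals. The share with an intronic PAS is alike in all span classes (38.7 to 40.2%) and lower in genes with a single exon3 PAS (25.1%), and the members have the lowest exon3ext share of the span classes (12.7%).

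PASs of neighbouring genes seldom fell within the spans. In 87 members (5.56%, 4.53 to 6.81%) a PAS of another gene on the opposite strand lay between the outermost exon3 PASs, and in 4 members (0.256%) 1 on the same strand. In genes spanning 800 to 2000 nt the opposite strand share was 7.17% (6.17 to 8.33%), an interval that overlaps that of the members. It was 3.46% both at 250 to 800 nt and at up to 250 nt. In 5 pairs both genes were members on opposite strands with a PAS of one inside the span of the other. These were Cox15 with Entpd7, Eya3 with Xkr8, Fbxo7 with Syn3, Igsf10 with Med12l, and Pank2 with Rnf24. In the third of these pairs Fbxo7, an F-box protein, spanned 3544 nt and Syn3, the synapsin, 6492 nt. Across the chromosomes, members made up between 15.2% (chromosome 17) and 24.5% (chromosome 16) of the genes with 2 or more exon3 PASs, leaving out chromosome Y with 2 such genes. Of the 6637 member PASs, 16 were also listed under another gene, among them both of Eno1 (span 2237 nt, longest last exon 1683 nt) and 4 of the 8 of Zfp91, and these cannot be told apart by position.

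The annotation placed the members among genes with long 3'UTRs, with a smaller difference in coding length. Their longest annotated 3'UTR had a median of 3406.5 nt (3337 to 3482 nt, 1530 genes), against 1870 nt for genes spanning 800 to 2000 nt, 1078 nt for 250 to 800 nt, 780 nt for up to 250 nt and 655 nt for a single PAS. A wide span needs a long 3'UTR, so this order follows from the rule where the annotation is complete. The coding length, which the rule did not use, had a median of 1578 nt in members (1521 to 1659 nt) and 1458 nt (1404 to 1503 nt), 1428 nt, 1404 nt and 1305 nt in the other groups in the same order. The number of exons had a median of 9 in each. GC content of the 3'UTR was 42.5% in members (median, 42.1 to 42.8%), 43.0% (42.6 to 43.5%) at 800 to 2000 nt and 47.3% (47.0 to 47.6%) in genes with a single exon3 PAS. In 242 members (15.8%, 14.1 to 17.7%) the span was wider than the longest annotated 3'UTR. Among these was Gabrb2, with a span of 4904 nt and a longest annotated 3'UTR of 2137 nt, as was Kif3a with 3133 nt and 908 nt.

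Hexamers were counted on the transcript strand of the longest annotated 3'UTR, with overlapping matches included. AATAAA occurred at least once in 93.7% of the members' 3'UTRs (92.3 to 94.8%), against 87.8%, 83.2%, 78.7% and 78.7% in genes spanning 800 to 2000 nt, 250 to 800 nt, up to 250 nt and with a single PAS. The median number of AATAAA or ATTAAA in a member was 5, beside 4 exon3 PASs, and 3 in the 800 to 2000 nt class, beside 3 PASs. Per 1000 nt of 3'UTR there were 0.895 AATAAA in members and 1.11, 1.22, 1.31 and 1.19 in the other groups in the same order, and 0.612 ATTAAA in members, between 0.563 with a single PAS and 0.752 at 250 to 800 nt. Longer sequence holds more matches of any hexamer, and a match is not a used signal.

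Target letters of miRNAs were counted in the same 3'UTRs, since the stretch between PASs is where the shorter isoform loses them. The mature sequences from RefSeq (GRCm38.p6) are given for 6 miRNAs known from brain or neurons, with the seed, bases 2 to 8, in capitals. The first of them was named in the study, and the others were added for this work.
mmu-miR-384-5p: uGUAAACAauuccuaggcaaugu
mmu-miR-9-5p: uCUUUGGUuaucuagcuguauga
mmu-miR-128-3p: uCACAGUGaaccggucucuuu
mmu-miR-132-3p: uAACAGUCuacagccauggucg
mmu-miR-134-5p: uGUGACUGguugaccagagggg
mmu-let-7a-5p: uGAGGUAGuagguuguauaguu
All 6 have different seeds. The complement of the seed of mmu-miR-384-5p, TGTTTAC, was present in the 3'UTR of 499 of 1530 members (32.6%, 30.3 to 35.0%), against 22.7% of genes spanning 800 to 2000 nt and 10.4% of genes with a single exon3 PAS. Per 1000 nt of 3'UTR it occurred 0.117 times in members, 0.125 times at 800 to 2000 nt and 0.107 times with a single PAS. The other 5 had the same order of shares, from 21.4% of members for mmu-let-7a-5p to 43.1% for mmu-miR-128-3p, and between 0.0668 and 0.161 matches per 1000 nt. So more members held each match, without a like rise in the number per length of 3'UTR.

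The stretch that a choice of PAS adds or removes could be read in a subset. In 223 of 1553 members (14.4%) the outermost PAS distance was matched to within 10 nt by the distance between 2 annotated transcript ends, and in 183 of them the stretch up to the distal end was continuous 3'UTR, with a median length of 2858 nt. Within it, at least 1 of the 6 seed matches was present in 139 genes (76.0%, 69.3 to 81.6%). The match to mmu-miR-384-5p was present in 50 (27.3%), that to mmu-miR-128-3p in 70 (38.3%) and that to mmu-let-7a-5p in 34 (18.6%). Per 1000 nt these occurred 0.104, 0.149 and 0.0600 times, against 0.117, 0.161 and 0.0668 in the members' whole 3'UTRs. Of the 6, only mmu-miR-9-5p was denser between the ends, with 0.101 against 0.0921. Long stretches hold more matches of any kind, and no background share was computed. In Dcx the stretch of 7631 nt held 1 match each for all but mmu-miR-9-5p. In Celf2 it held 1 each for mmu-miR-384-5p, mmu-miR-9-5p, mmu-miR-128-3p and mmu-miR-132-3p in 2175 nt. In Fip1l1 and Dclk1 it held none of the 6, in 2645 nt and 2512 nt. Rps15a had 2 matches to mmu-miR-384-5p in 4692 nt, and Fosl2 had 1 in 4129 nt. AATAAA was present in 176 of the 183 stretches (96.2%), the signal of the distal end included, and 5 copies lay in that of Fip1l1, whose exon3 PASs numbered 3. The distance, not the position, made these matches, and whether the miRNAs bind there was not tested.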

How the data were processed

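The deposited PAS list holds, per the file headers, a position, strand, gene symbol and type for each poly(A) site on mm9. According to the study's methods and the submitters' processing notes, the authors mapped 3'READS reads with Bowtie 2 (version not given in the sources used here), kept reads with at least 2 unaligned Ts and clustered sites within 24 nt. The paper also excluded outlier samples and counted PASs above a minimum read number and relative abundance. It reported fewer PASs than the list holds. No such filter was applied here, so an outermost PAS can be a little used one. The 12 columns of read counts in the deposited list match no sample label and were not used, so no sample entered a test. Spans and gaps were computed per gene from exon3 positions in Python 3.11.15 (pandas 2.3.3, scipy 1.17.1) and checked on simulated lists. Lengths and 3'UTR sequences came from GENCODE M21 on GRCm38, matched by symbol and chromosome, with no conversion of coordinates, and transcript ends on chromosome 18 are neither shown nor counted in the hexamer check. Shares have 95% Wilson intervals and medians binomial order-statistic intervals. Named genes were the widest 15, the 10 with most sites, 3 on each side of the threshold, up to 4 per list by span, the 10 most and 5 least uneven with 5 or more sites, and Creb1, Homer1, Notch1 and Wdr33. Beyond this rule, the remaining members of some lists, the convergent pairs and the genes with shown or searched sequences were named after their values were seen. Members and lists were chosen with earlier results of these data known. Some genes that the rule selects are counted but not reported here by name.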

Additional observations from a re-analysis of the deposited data

How the results depend on the processing

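No paired analysis was possible because no result came from a test. The 1565 members, their share of the 7465 genes with 2 or more exon3 PASs and their median span depend on the definition. With exon3ext PASs counted there were 2267 members (all 1565 among them, 27.8% of genes), with a median span of 3210 nt and, by construction, an exon3ext share of 39.7%. A threshold of 1500 nt gave 2292 (30.7%, median 2411 nt), and 3000 nt gave 752 (10.1%, median 4081 nt). Requiring 1 gap over 2000 nt gave 944 (12.6%, median 3426.5 nt), of which 36.9% had an intronic PAS, against 40.2%. Leaving out the 133 spans wider than the longest annotated last exon together with the 12 genes without a match in the annotation, chosen after seeing the data, gave 1420 with a median of 2853 nt. Counting only the same strand lowered the share of spans with a PAS of another gene from 5.75% to 0.256%, and taking the transcript with the longest coding sequence raised the share of spans wider than the 3'UTR from 15.8% to 28.4%. Of 47 alternative values of these results, 32 stayed within the interval of the main value or within 1.5 times a count. Dropping shared PASs, merging PASs within 24 nt, leaving out spans over 20000 nt or those with a same-strand PAS of another gene moved none of these. Of 282 alternative spans of named genes 12 changed, all with exon3ext PASs counted.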

Other observations

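Some genes outside the membership would enter it with the PASs beyond their annotated ends. With exon3ext PASs counted, the span of Homer1, a postsynaptic scaffold gene, went from 323 nt to 9275 nt, and that of Wdr33 from 716 nt to 4222 nt. Among members, Lrrc58 went from 7021 nt to 10655 nt and Kcnj6 from 9219 nt to 10065 nt. Camk4 is a member whose 4 exon3 PASs span 10421 nt, beside a longest annotated 3'UTR of 1069 nt, with no PAS of another label between them.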
